A study of Mus musculus with 10 samples.

Results

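The replication-dependent histone genes of the mouse are described here across 5 groups of sorted naive T cells. Members were all rows of the count table whose symbol begins with Hist1h, Hist2h, Hist3h or Hist4h, which gave 70 of 34573 gene rows. All cells came from the spleen of mice 6 weeks old, sorted by flow cytometry as TCRb-positive, CD25-negative, CD44-negative cells with high CD62L. Mice of the genotype OB11/OB11 gave 3 groups, namely cells with high CD4 (OB11 CD4hi), cells with both CD4 and CD8 (OB11 DP) and cells with low CD4 (OB11 CD4lo). Wild-type mice gave CD8 cells (WT CD8) and CD4 cells (WT CD4). Each group had 2 libraries. The series title concerns the autoregulatory loop of ThPOK, a zinc finger transcription factor of CD4 T cells. What the allele named OB11 alters is not given in the labels. Nor do they state that the libraries of a group came from separate animals, so p-values measure only the spread between libraries, which may be technical. The titles of the OB11 CD4lo and WT CD4 libraries carry a letter L that the labels do not explain. It lies with whole groups, so where a group with L is compared with a group without it, effects of the mark and of the group cannot be told apart.

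Replication-dependent histone genes encode the linker histone H1 and the core histones H2A, H2B, H3 and H4, around which new DNA is wrapped during S phase. Their mRNAs normally end in a conserved stem-loop in place of a poly(A) tail. The stem-loop is bound by SLBP and the transcript is cut just after it by a complex that holds the U7 snRNP. Transcription depends on NPAT, which gathers at the histone gene clusters, and the mRNAs are degraded when DNA synthesis stops. Some members also give polyadenylated transcripts in cells that do not divide. Libraries made by selection of poly(A) RNA miss most of these transcripts, whereas the present libraries were made from 10 ng of total RNA by removal of ribosomal cDNA.

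The stem-loop is printed for 8 of the members in which it was found, as DNA of the sense strand. Sequences are from GENCODE M21 transcripts (GRCm38, the same assembly as mm10), with the 16 bases of the stem-loop in capitals and 5 bases on each side.
Hist1h1c: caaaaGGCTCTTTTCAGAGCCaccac
Hist1h1d: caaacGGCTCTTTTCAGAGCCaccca
Hist1h2bg: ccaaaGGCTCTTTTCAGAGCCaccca
Hist2h2ac: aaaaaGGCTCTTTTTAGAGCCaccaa
Hist1h3e: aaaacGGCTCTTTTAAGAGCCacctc
Hist1h4d: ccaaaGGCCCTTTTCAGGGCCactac
Hist1h4a: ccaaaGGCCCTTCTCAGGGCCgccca
Hist4h4: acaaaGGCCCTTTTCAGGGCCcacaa
A stem-loop of this form was found after the stop codon in 46 of 70 members. No stem-loop was found in Hist1h1a, Hist1h1b, Hist1h2af, Hist1h2ak and Hist2h2bb, described below, whose annotation runs at most 48 bases past the stop codon. Of the 49 members whose annotation runs at least 55 bases past the stop codon, 45 had it, and the exceptions were Hist1h2bc, Hist1h2bq, Hist1h2br and Hist2h2be. Within the first 100 bases past the stop codon it was present in 26 of 31 members with that much annotated sequence, against 4 of 19813 other protein-coding genes (0.0202%). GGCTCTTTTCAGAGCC was the most common form in H1, H2A, H2B and H3 members, and all 12 H4 members with a stem-loop had another stem, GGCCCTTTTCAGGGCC in 7 of them.

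Promoters of 300 bases (250 before and 50 after the start, RefSeq, GRCm38.p6) were matched for 61 members. They were searched on both strands for CCAAT, for TATAAA and for ATTTGCAT, the octamer known from H2B promoters as a site of OCT1. CCAAT was present in 52 of 61 member promoters (85.2%), against 37.8% of 26964 other promoters. It was found in all 6 H1, 17 H2A, 16 H2B and 10 H3 promoters and in 3 of 12 H4 promoters. TATAAA was present in 35 (57.4%), against 14.1% of other promoters. The octamer was present in 13 (21.3%), against 1.71% of other promoters, and those 13 were 7 H2A and 6 H2B promoters. Some H2A and H2B genes lie head to head, so that their promoters overlap and 1 site can count for both. For example, Hist1h2ah starts at chr13:22035643 on the minus strand and Hist1h2bk at chr13:22035821 on the plus strand. The counts of promoters are therefore not counts of independent sites. The promoters of Hist1h1b, an H1 gene called in OB11 CD4hi and OB11 DP against WT CD4 in all settings tried, and of Hist1h2bk, an H2B gene with the octamer, are shown with matches on either strand in capitals (ATTGG and TTTATA are CCAAT and TATAAA on the opposite strand). The Hist1h1b promoter lies at chr13:21780576-21780875 on the minus strand and the Hist1h2bk promoter at chr13:22035571-22035870 on the plus strand.
Hist1h1b: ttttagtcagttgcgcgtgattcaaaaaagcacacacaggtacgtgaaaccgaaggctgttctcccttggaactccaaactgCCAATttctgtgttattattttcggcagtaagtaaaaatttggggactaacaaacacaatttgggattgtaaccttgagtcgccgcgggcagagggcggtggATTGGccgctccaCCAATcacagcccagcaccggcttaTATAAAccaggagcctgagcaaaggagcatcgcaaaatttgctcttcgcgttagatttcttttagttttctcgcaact
Hist1h2bk: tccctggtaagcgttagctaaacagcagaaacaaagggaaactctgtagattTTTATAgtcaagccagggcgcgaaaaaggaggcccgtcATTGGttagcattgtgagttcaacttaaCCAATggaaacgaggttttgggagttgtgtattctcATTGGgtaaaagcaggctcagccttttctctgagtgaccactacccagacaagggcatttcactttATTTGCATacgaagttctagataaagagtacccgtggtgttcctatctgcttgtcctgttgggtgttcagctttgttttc
A match of letters is a description and not a binding site.

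On chromosome 13 the Hist1 cluster holds 55 of the members, in a proximal stretch (chr13:21715763-22043676, 24 members) and a distal stretch (chr13:23531050-23934851, 31 members). The Hist2 cluster on chromosome 3 (chr3:96219865-96270132) holds 10, the Hist3 cluster on chromosome 11 holds 3, and Hist4h4 lies alone on chromosome 6. Hist1h2al, named as an H2A gene, is annotated as a processed pseudogene at chr13:51202727-51203065, outside the cluster. Histone genes of a class are near copies of each other, so that reads can fit several members, and how the authors treated such reads is not given in the sources used here. Among the members that were tested, the share of 50-base windows of a gene found also in another gene had a median of 44.5% and ran from 0% to 93.5%, and it was at least 50% for 20 of 52. It is given beside the members described.

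Library totals ran from 5055956 to 7417789 counts, of which the members held 3317 to 6753 (0.0550% to 0.0941%). Hist1h1c alone held 29.8% of all member counts and Hist1h1e 15.8%, and the 8 members with the most counts held 71.0%. Libraries 1 of OB11 CD4hi and 2 of WT CD4 stood apart, with 23545 and 25272 genes with counts, against 15532 to 17345 in the other 8. Of 10658 genes at 0 in those 8, 26.5% had counts in OB11 CD4hi 1 and 35.5% in WT CD4 2, at about 0.352 and 0.581 counts per kb. Counts of called members are therefore also given without these libraries, and any part that this signal had in them was not tested. Of the 70 members, 52 passed the filter on low counts and were tested, namely 5 of 6 H1, 12 of 20 H2A, 15 of 19 H2B, 8 of 12 H3 and 12 of 13 H4 genes. Another 15 had counts below the filter, at most 62 over all libraries, among them the testis genes Hist1h1t and Hist1h2ba with 2 counts each. Hist1h2aa, Hist2h2aa1 and Hist2h3c1 had no counts in any library. A gene that passes the filter through 1 group only had to differ, so the counts below describe the 52 and not all members.

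Summed over all 70 members, TMM-normalised CPM (counts scaled to a common library size) were highest in OB11 DP and OB11 CD4hi. The sum was 792 and 833 CPM in OB11 CD4hi, 925 and 954 in OB11 DP, 669.8 and 738 in OB11 CD4lo, 644 and 599.6 in WT CD8, and 626 and 531 in WT CD4. All 4 libraries of OB11 CD4hi and OB11 DP thus lay above all 6 others, and OB11 CD4lo lay between them and the wild-type groups. In ratios of group means, the sum was 1.40 times that of WT CD4 in OB11 CD4hi, 1.62 times in OB11 DP, 1.22 times in OB11 CD4lo and 1.07 times in WT CD8. Without Hist1h1c and Hist1h1e, which hold most H1 counts, and without Hist1h2al, the remaining 67 members gave 456 and 469.6 CPM in OB11 CD4hi, 487 and 531 in OB11 DP, 322 and 344 in OB11 CD4lo, 299 and 277 in WT CD8, and 327 and 279 in WT CD4. Their ratios to WT CD4 were 1.53 for OB11 CD4hi, 1.68 for OB11 DP, 1.10 for OB11 CD4lo and 0.951 for WT CD8. In these bulk samples, fewer cells that make histone mRNA and less histone mRNA per cell cannot be told apart.

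By class, the H1 sum was 386 and 411 CPM in OB11 CD4hi, 481 and 475 in OB11 DP, 369.8 and 404 in OB11 CD4lo, 364 and 339.7 in WT CD8, and 341 and 285 in WT CD4. Most of it came from Hist1h1c and Hist1h1e. H2A genes summed to 106 and 110.1 CPM in OB11 CD4hi, 127 and 125 in OB11 DP, 66.1 and 91.8 in OB11 CD4lo, 73.7 and 62.9 in WT CD8, and 74.3 and 61.3 in WT CD4, and H2B genes to 114 and 122 CPM in OB11 CD4hi, 122 and 144 in OB11 DP, 93.1 and 96.9 in OB11 CD4lo, 71.98 and 76.9 in WT CD8, and 75.7 and 66.1 in WT CD4. H3 genes summed to 42.96 and 39.3 CPM in OB11 CD4hi, 43.3 and 45.9 in OB11 DP, 21.98 and 28.6 in OB11 CD4lo, 25.6 and 27.1 in WT CD8, and 21.7 and 23.2 in WT CD4, and H4 genes to 142 and 151 CPM in OB11 CD4hi, 151 and 164 in OB11 DP, 119 and 117 in OB11 CD4lo, 108 and 93.00 in WT CD8, and 113 and 95.4 in WT CD4. In each of the 5 classes, all 4 OB11 CD4hi and OB11 DP libraries were above all 4 wild-type libraries. The ratio of OB11 DP to WT CD4 was 1.53 for H1, 1.86 for H2A, 1.88 for H2B, 1.99 for H3 and 1.51 for H4, and for the H1 genes other than Hist1h1c and Hist1h1e it was 2.05. Leaving Hist1h2al out of the H2A sum lowered this ratio to 1.43, and it turned the direction in the groups nearer to WT CD4. The H2A sum was then 45.97 and 60.7 CPM in OB11 CD4lo, 54.5 and 46.8 in WT CD8, and 74.3 and 61.3 in WT CD4. The ratio to WT CD4 was 0.787 in OB11 CD4lo, against 1.16 with Hist1h2al, and 0.747 in WT CD8, against 1.01 with it. Of these sums, Hist2h2ac gave a mean of 38.2 of 67.8 CPM in WT CD4, 17.7 of 53.3 in OB11 CD4lo and 20.3 of 50.6 in WT CD8. The turn in direction thus came from Hist2h2ac and does not describe H2A genes as a class.

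**Figure D1:**
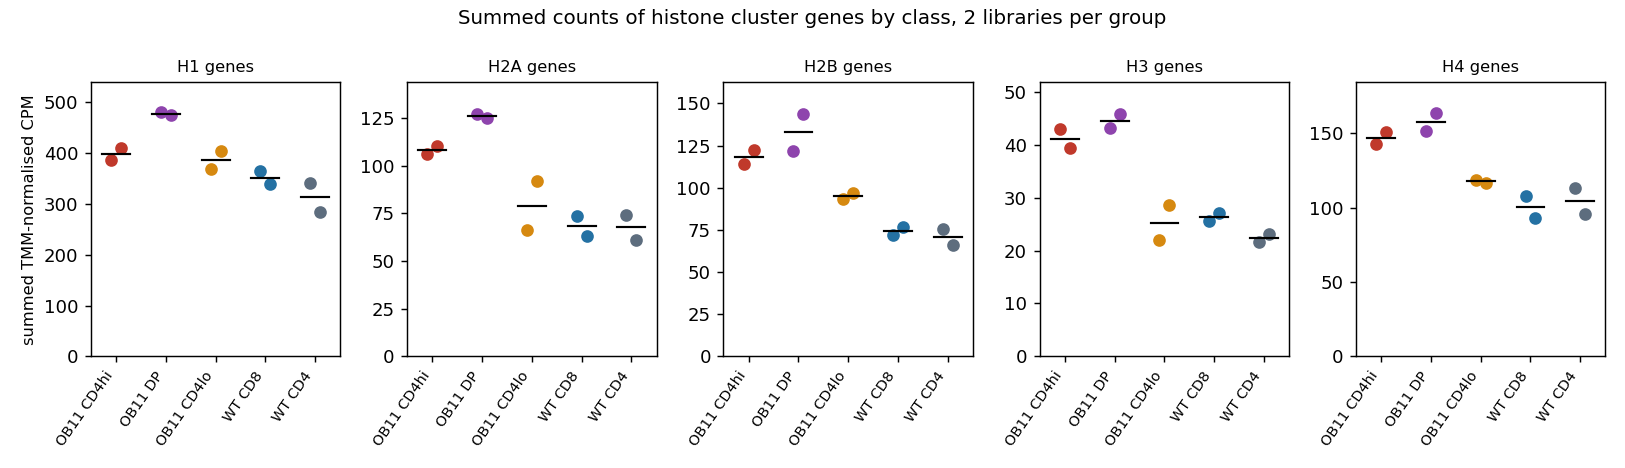
Summed TMM-normalised CPM (vertical axes, from 0) of the H1, H2A, H2B, H3 and H4 genes in the 5 groups; points are the 2 libraries of a group and bars their mean. In each class the OB11 CD4hi and OB11 DP libraries are above the wild-type ones, as in H3, with 39.3 to 45.9 CPM against 21.7 to 27.1 CPM.

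Each comparison was tested with edgeR's quasi-likelihood test over all 12193 genes that passed the filter, with Benjamini-Hochberg adjustment and a threshold of 0.05; fold changes are log2 values ± SE from that fit, with n = 2 libraries per group. In the test of any difference among the 5 groups, 27 of the 52 members passed, where 25.8% of all genes did. In OB11 CD4hi against WT CD4, 19 members were higher and 2 lower, where 10.4% of all genes were higher and 6.43% lower (16.8% in either direction). The median log2 fold change of the members was 0.68, against 0.00 for all genes, and it is the same with Hist1h2al, which had no counts in WT CD4, set to its bound. In OB11 DP against WT CD4, 24 were higher and 2 lower, where 11.1% of all genes were higher and 8.06% lower (19.1% in either direction), and the median was 1.06, against -0.01 for all genes. These comparisons share the WT CD4 libraries, which agreed least with each other. The mean chi-square between libraries of a group was 15.1 in WT CD4, against 3.48 to 8.14 in the other groups (genes with at least 20 counts). The fit pools the spread over all 10 libraries, so its p-values may understate the spread within WT CD4. With only the 4 compared libraries, 12 members were called in OB11 CD4hi and 21 in OB11 DP. Without OB11 CD4hi library 2 the first count of called members fell to 13, and without OB11 DP library 2 the second fell to 16. With OB11 CD4hi 1 and WT CD4 2 both left out, 12 members were higher and 2 lower in OB11 CD4hi, and 18 were higher and 3 lower in OB11 DP.

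OB11 CD4lo, whose titles carry the same mark as WT CD4, had fewer called members against it. Here 9 members were higher and 3 lower, where 8.82% of all genes were higher and 7.02% lower (15.8% in either direction), and the median was 0.30. The count was 7 without OB11 CD4lo library 1 and 9 without the libraries that stood apart. In WT CD8 against WT CD4, 6 members were higher and 5 lower, where 11.1% of all genes were higher and 10.6% lower (21.7% in either direction), and the median was -0.03. The members' share was thus near that of all genes in this comparison. It was 7 without WT CD8 library 1 and 6 without WT CD8 library 2.

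Against WT CD8, 16 members were higher and 0 lower in OB11 CD4hi, where 6.22% of all genes were higher and 3.69% lower (9.92% in either direction), and the median was 0.76. In OB11 DP, 19 were higher and 0 lower, where 4.57% of all genes were higher and 2.28% lower (6.85% in either direction), and the median was 0.82. DESeq2 also gave 0 members lower in both, with 8 and 11 higher, and 26 and 32 members had an unadjusted p under 0.05 in edgeR in either direction. None of these titles carries the mark. The OB11 CD4hi count fell to 8 without OB11 CD4hi 1, 7 without OB11 CD4hi 2, 10 without OB11 DP 1 or OB11 DP 2, 8 without WT CD8 1 and 4 without WT CD8 2. The OB11 DP count fell to 11 without OB11 DP 1, 8 without OB11 DP 2, 11 without WT CD8 1 and 7 without WT CD8 2. With OB11 CD4hi 1 and WT CD4 2 left out, the counts were 11 and 24. In OB11 CD4lo against WT CD8, 2 members were higher and 0 lower, where 3.41% of all genes were higher and 2.08% lower (5.49% in either direction), with a median of 0.29; leaving out 1 library at a time gave 0 to 4, DESeq2 gave 0, and 13 members had an unadjusted p under 0.05.

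Among the OB11 groups, no member was called in OB11 DP against OB11 CD4hi by edgeR or by DESeq2, where 1.62% of all genes were called by edgeR in either direction. The median was 0.14, and 4 members had an unadjusted p under 0.05 in edgeR and 1 in DESeq2. In OB11 CD4lo against OB11 CD4hi, 1 member was higher and 9 lower, where 2.76% of all genes were higher and 4.27% lower (7.03% in either direction), and the median was -0.46. This count was 3 without OB11 CD4hi 1, 4 without OB11 CD4hi 2, 2 without OB11 CD4lo 1, 5 without OB11 CD4lo 2 and 10 without the libraries that stood apart. In OB11 CD4lo against OB11 DP, 0 members were higher and 12 lower, where 2.55% of all genes were higher and 3.64% lower (6.19% in either direction), and the median was -0.60. It was 6 without OB11 DP 2, 5 without OB11 CD4lo 1 and 15 without the libraries that stood apart, of which 1 was higher. DESeq2 called 7 lower and 0 higher, and 24 members had an unadjusted p under 0.05 in edgeR.

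**Figure D2:**
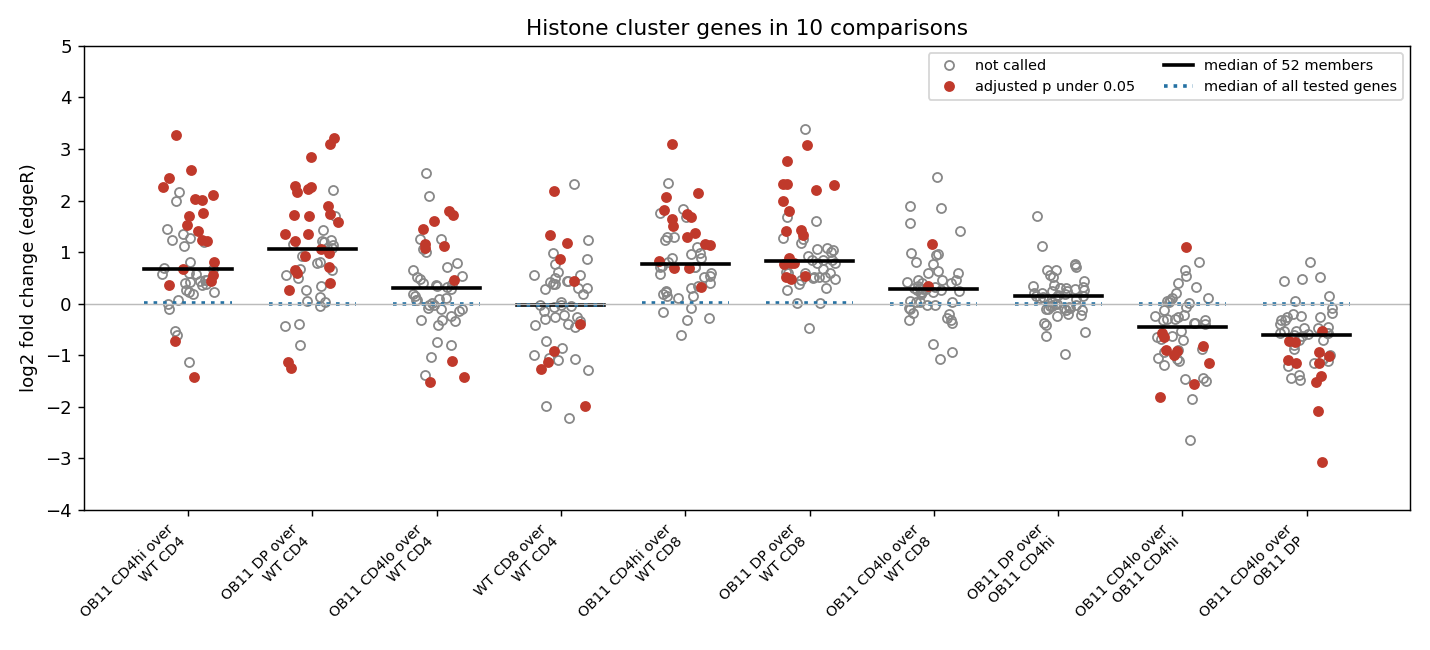
Log2 fold change (vertical axis) of 51 tested histone cluster genes in 10 comparisons, first group over second; Hist1h2al, with no counts in WT CD4, is left out of the points. Filled points are genes with an adjusted p under 0.05, solid bars the median of all 52 members and dotted bars the median of all tested genes; the solid bars are highest for OB11 DP over WT CD4 (1.06) and lowest for OB11 CD4lo over OB11 DP (-0.60).

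Fold changes of single members are given with an adjusted p, below, only where the call was kept in all 16 other settings tried, which include leaving out each library in turn. Members whose calls were lost in some setting are given by their levels. Genes outside the members, such as Slbp, Mki67 and Pcna, were not held to this rule, and their values are from the reported fit. All p-values are from edgeR's quasi-likelihood test with Benjamini-Hochberg adjustment over all tested genes.

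The H1 genes encode linker histones, which bind the DNA between nucleosomes. All 5 tested H1 genes passed the test of any difference, where 25.8% of all genes did. Hist1h1b (RefSeq symbol H1f5, chr13:21779883-21780625, no window shared with another gene) had 12.3 and 14.6 CPM in OB11 CD4hi, 15.5 and 14.8 in OB11 DP, 8.44 and 4.70 in OB11 CD4lo, 3.10 and 2.96 in WT CD8, and 2.49 and 3.61 in WT CD4. OB11 CD4hi and OB11 DP were clearly high, OB11 CD4lo was between, with libraries far apart, and the wild-type groups were low and overlapped each other. Relative to WT CD4 it was 4.32-fold higher (log2 fold change 2.11 ± 0.29, adjusted p = 0.000129) in OB11 CD4hi and 4.87-fold higher (log2 fold change 2.28 ± 0.28, adjusted p = 4.37e-05) in OB11 DP. Relative to WT CD8 it was 4.44-fold higher (log2 fold change 2.15 ± 0.29, adjusted p = 0.000164) in OB11 CD4hi and 4.99-fold higher (log2 fold change 2.32 ± 0.28, adjusted p = 0.000122) in OB11 DP. Hist1h1a (RefSeq symbol H1f1, no shared window) had the same order, with 11.99 and 14.7 CPM in OB11 CD4hi, 13.5 and 16.8 in OB11 DP, 6.84 and 7.44 in OB11 CD4lo, 6.01 and 6.05 in WT CD8, and 5.33 and 3.06 in WT CD4. Here no library of OB11 CD4hi or OB11 DP fell within the range of the other 3 groups. It was 3.26-fold higher (log2 fold change 1.70 ± 0.26, adjusted p = 0.000357) in OB11 CD4hi and 3.69-fold higher (log2 fold change 1.88 ± 0.25, adjusted p = 9.94e-05) in OB11 DP, relative to WT CD4.

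Hist1h1d (2.25% of windows shared) had 45.6 and 41.7 CPM in OB11 CD4hi, 46.1 and 46.9 in OB11 DP, 26.8 and 29.2 in OB11 CD4lo, 29.7 and 24.6 in WT CD8, and 33.6 and 26.4 in WT CD4. Its OB11 CD4lo libraries lay within the range of the wild-type libraries. It was 1.56-fold higher (log2 fold change 0.64 ± 0.13, adjusted p = 0.00231) in OB11 DP relative to WT CD4, and 1.67-fold lower (log2 fold change -0.74 ± 0.13, adjusted p = 0.00214) in OB11 CD4lo relative to OB11 DP. The H1 genes that give most member counts differed less. Hist1h1c (8.54% shared) had 202 and 219 CPM in OB11 CD4hi, 277 and 256 in OB11 DP, 213 and 240.4 in OB11 CD4lo, 227 and 217 in WT CD8, and 182 and 146 in WT CD4. It was lowest in both WT CD4 libraries, and OB11 CD4lo and WT CD8 were as high as OB11 CD4hi. In OB11 DP it was 1.63-fold higher (log2 fold change 0.70 ± 0.10, adjusted p = 0.000168), relative to WT CD4. Hist1h1e (32.0% shared, and overlapping Hist1h2be on the same strand) had 114 and 121 CPM in OB11 CD4hi, 129 and 141 in OB11 DP, 115 and 122 in OB11 CD4lo, 98.2 and 89.1 in WT CD8, and 118 and 105 in WT CD4. The WT CD4 libraries overlapped those of OB11 CD4hi and OB11 CD4lo, and no call for this gene was kept in all settings.

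H2A genes encode a core histone that pairs with H2B in the nucleosome. Of the 12 tested, 5 passed the test of any difference, where 25.8% of all genes did. Hist1h2af (79.7% of windows shared, with 24 other genes, so its counts cannot be assigned to it with certainty) had 13.1 and 13.7 CPM in OB11 CD4hi, 15.99 and 15.96 in OB11 DP, 5.23 and 7.05 in OB11 CD4lo, 4.85 and 3.36 in WT CD8, and 3.20 and 1.39 in WT CD4. The 4 OB11 CD4hi and OB11 DP libraries were above 13 CPM and every other library below 8. It was 6.03-fold higher (log2 fold change 2.59 ± 0.32, adjusted p = 4.40e-05) in OB11 CD4hi and 7.18-fold higher (log2 fold change 2.84 ± 0.31, adjusted p = 1.18e-05) in OB11 DP relative to WT CD4, and without WT CD4 library 1 these log2 values were 3.26 and 3.52. Relative to WT CD8 it was 3.33-fold higher (log2 fold change 1.73 ± 0.29, adjusted p = 0.000892) in OB11 CD4hi and 3.97-fold higher (log2 fold change 1.99 ± 0.28, adjusted p = 0.000383) in OB11 DP. Hist1h2ak (52.3% shared) had 19.5 and 17.96 CPM in OB11 CD4hi, 18.5 and 22.03 in OB11 DP, 9.65 and 11.6 in OB11 CD4lo, 7.57 and 7.66 in WT CD8, and 8.71 and 7.22 in WT CD4. Its OB11 CD4lo libraries were the next in order, above all wild-type libraries. Relative to WT CD4 it was 2.36-fold higher (log2 fold change 1.24 ± 0.18, adjusted p = 0.000267) in OB11 CD4hi and 2.56-fold higher (log2 fold change 1.36 ± 0.18, adjusted p = 8.26e-05) in OB11 DP, and relative to WT CD8 it was 2.45-fold higher (log2 fold change 1.30 ± 0.19, adjusted p = 0.000275) in OB11 CD4hi and 2.66-fold higher (log2 fold change 1.41 ± 0.18, adjusted p = 0.000191) in OB11 DP.

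Hist1h2ac (14.1% shared) stood out in OB11 CD4lo, with 7.70 and 7.11 CPM in OB11 CD4hi, 10.03 and 7.91 in OB11 DP, 1.47 and 2.94 in OB11 CD4lo, 5.04 and 4.03 in WT CD8, and 5.15 and 6.11 in WT CD4. The OB11 CD4lo libraries were the lowest of all. It was 4.22-fold lower (log2 fold change -2.08 ± 0.33, adjusted p = 0.00114) in OB11 CD4lo relative to OB11 DP. Hist1h2ab (58.0% shared) had few counts, 8 to 19 in each OB11 library, 1 and 2 in WT CD8 and 4 and 9 in WT CD4.

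H2B genes encode the partner of H2A. Of the 15 tested, 8 passed the test of any difference, where 25.8% of all genes did. Hist1h2bg (49.7% shared, with 14 other genes) had 10.4 and 11.7 CPM in OB11 CD4hi, 12.9 and 14.4 in OB11 DP, 7.10 and 6.27 in OB11 CD4lo, 5.63 and 4.57 in WT CD8, and 7.46 and 6.39 in WT CD4. It was 1.98-fold higher (log2 fold change 0.98 ± 0.21, adjusted p = 0.00364) in OB11 DP relative to WT CD4 and 2.70-fold higher (log2 fold change 1.43 ± 0.22, adjusted p = 0.000760) relative to WT CD8. Its OB11 CD4lo libraries overlapped WT CD4 and lay above WT CD8. Hist1h2bk (74.2% shared), whose promoter is printed above, had 17 and 23 counts in OB11 CD4hi, 24 and 32 in OB11 DP, 20 and 17 in OB11 CD4lo, 6 and 4 in WT CD8, and 3 and 8 in WT CD4. Hist1h2bl (82.8% shared) had 21 and 24 counts in OB11 CD4hi, 16 and 35 in OB11 DP, 16 and 6 in OB11 CD4lo, 9 and 14 in WT CD8, and 1 and 4 in WT CD4. These low counts leave wide errors.

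H3 genes encode the core histone that carries many of the known regulatory marks on its tail. Of the 8 tested, 2 passed the test of any difference, Hist1h3e and Hist1h3b, which is close to the 25.8% of all genes that passed it. Hist1h3e (73.4% shared, mostly with Hist1h3f) had 13.1 and 15.4 CPM in OB11 CD4hi, 16.5 and 17.4 in OB11 DP, 7.10 and 8.22 in OB11 CD4lo, 8.54 and 11.02 in WT CD8, and 9.24 and 7.22 in WT CD4. All OB11 CD4lo and wild-type libraries lay below those of OB11 CD4hi and OB11 DP, and the WT CD4 libraries overlapped both OB11 CD4lo and WT CD8, while both OB11 CD4lo libraries were below both of WT CD8. It was 2.07-fold higher (log2 fold change 1.05 ± 0.20, adjusted p = 0.00162) in OB11 DP relative to WT CD4, and 2.22-fold lower (log2 fold change -1.15 ± 0.20, adjusted p = 0.00218) in OB11 CD4lo relative to OB11 DP. Hist1h3b (60.4% shared) had 8 and 16 counts in OB11 CD4hi, 16 and 22 in OB11 DP, 3 and 1 in OB11 CD4lo, 2 and 3 in WT CD8, and 4 and 7 in WT CD4. Hist1h3c (47.0% shared) had 9 and 6 counts in OB11 CD4hi, 22 and 16 in OB11 DP, 9 and 14 in OB11 CD4lo, 7 and 14 in WT CD8, and 2 and 2 in WT CD4.

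H4 genes all encode the partner of H3. Of the 12 tested, 7 passed the test of any difference, where 25.8% of all genes did. Hist1h4d (10.2% shared) had 46.2 and 46.1 CPM in OB11 CD4hi, 43.9 and 45.8 in OB11 DP, 30.3 and 32.1 in OB11 CD4lo, 28.3 and 23.8 in WT CD8, and 36.3 and 32.4 in WT CD4. Both of its WT CD4 libraries were above both of WT CD8. Relative to WT CD8 it was 1.78-fold higher (log2 fold change 0.84 ± 0.11, adjusted p = 0.000149) in OB11 CD4hi and 1.73-fold higher (log2 fold change 0.79 ± 0.11, adjusted p = 0.000371) in OB11 DP. Hist1h4f (39.5% shared) had 34 and 41 counts in OB11 CD4hi, 27 and 33 in OB11 DP, 18 and 10 in OB11 CD4lo, 10 and 13 in WT CD8, and 10 and 7 in WT CD4. It was 4.81-fold higher (log2 fold change 2.27 ± 0.41, adjusted p = 0.00143) in OB11 CD4hi relative to WT CD4. Hist1h4k (71.5% shared) had 5.73 and 3.73 CPM in OB11 CD4hi, 8.62 and 6.21 in OB11 DP, 2.55 and 2.55 in OB11 CD4lo, 1.16 and 1.75 in WT CD8, and 4.26 and 2.22 in WT CD4. OB11 DP was highest, and it was 4.90-fold higher (log2 fold change 2.29 ± 0.43, adjusted p = 0.00403) there relative to WT CD8. Hist2h4 (1.01% shared) had 30.2 and 30.3 CPM in OB11 CD4hi, 25.1 and 31.8 in OB11 DP, 25.5 and 23.9 in OB11 CD4lo, 22.9 and 18.01 in WT CD8, and 28.3 and 19.6 in WT CD4. Its OB11 CD4hi libraries lay above those of OB11 CD4lo, WT CD8 and WT CD4, and the other groups overlapped in part. It did not pass the test of any difference, and no comparison called it.

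**Figure D3:**
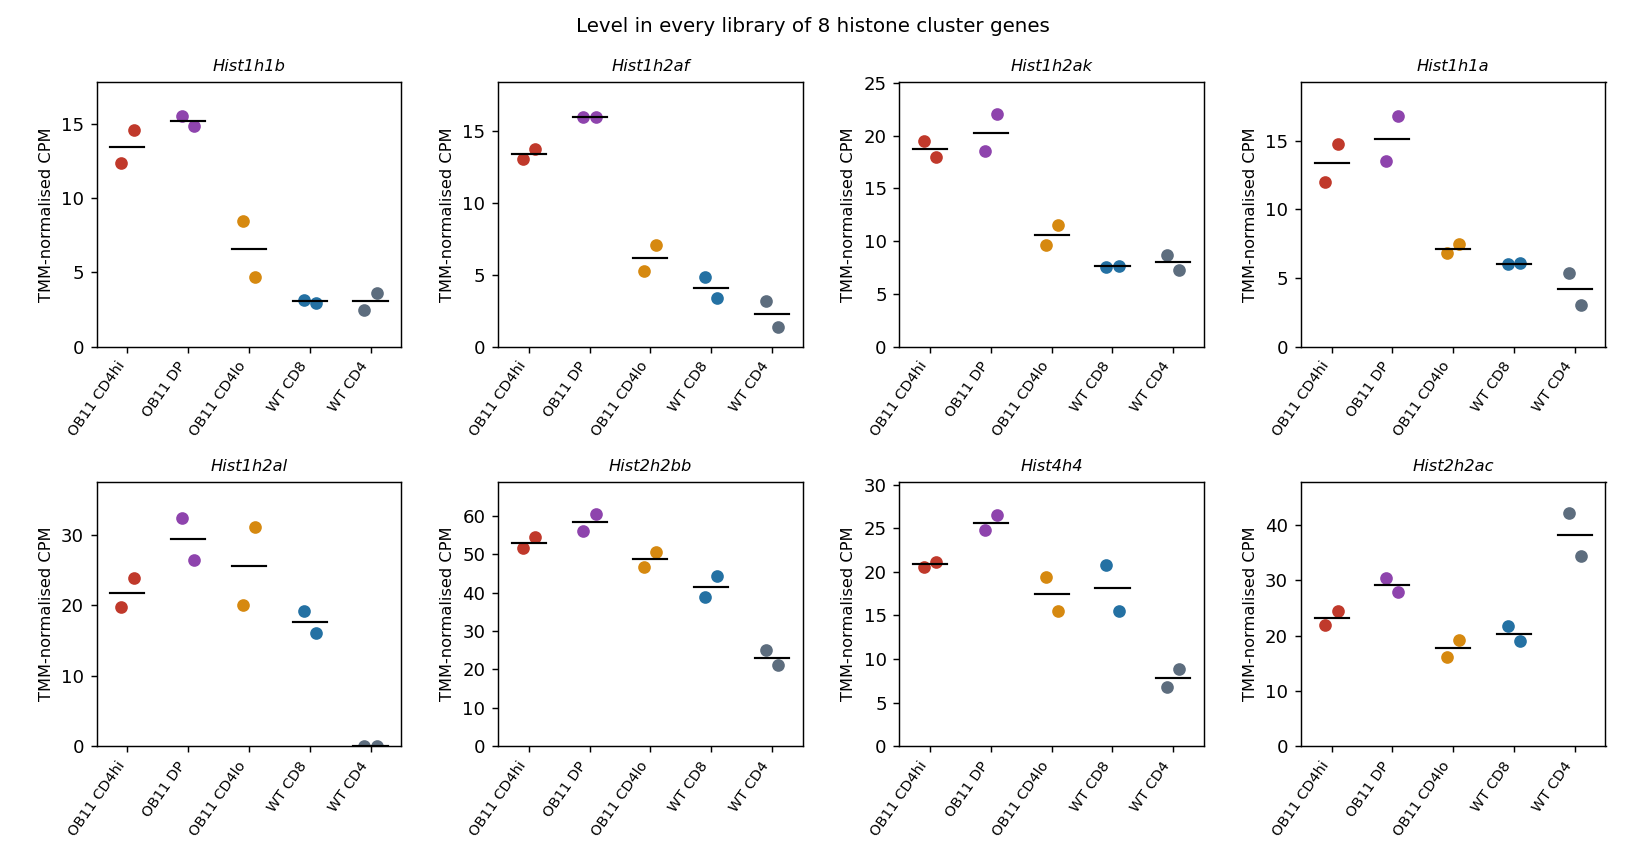
TMM-normalised CPM (vertical axes, from 0) of 8 histone cluster genes in each library; points are the 2 libraries of a group and bars their mean. Hist1h1b, Hist1h2af, Hist1h2ak and Hist1h1a (top) are highest in OB11 CD4hi and OB11 DP, while for Hist1h2al, Hist2h2bb, Hist4h4 and Hist2h2ac (bottom) WT CD4 is the group that lies apart, with 0 counts of Hist1h2al.

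A smaller set of members separated WT CD4 from all other groups, WT CD8 included. Hist1h2al (67.6% of windows shared) had 110 and 141 counts in OB11 CD4hi, 207 and 187 in OB11 DP, 150 and 159 in OB11 CD4lo, 99 and 120 in WT CD8, and 0 and 0 in WT CD4. Against a floor of 3 counts over the WT CD4 group, its level was at least 93.1-fold higher in OB11 CD4hi, at least 126-fold higher in OB11 DP, at least 110-fold higher in OB11 CD4lo and at least 75.5-fold higher in WT CD8. Of all 34573 gene rows, only Hist1h2al and Vmn2r1, a vomeronasal receptor gene, had 0 counts in both WT CD4 libraries and at least 20 in each other library. RefSeq annotates the Hist1h2al locus as a transcribed pseudogene 2983 bases long.

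Hist2h2bb, an H2B gene of the Hist2 cluster, also was low in WT CD4. It had 51.7 and 54.4 CPM in OB11 CD4hi, 56.1 and 60.6 in OB11 DP, 46.6 and 50.7 in OB11 CD4lo, 38.8 and 44.3 in WT CD8, and 25.1 and 21.1 in WT CD4. Relative to WT CD4 it was 2.31-fold higher (log2 fold change 1.21 ± 0.11, adjusted p = 3.14e-06) in OB11 CD4hi, 2.54-fold higher (log2 fold change 1.35 ± 0.11, adjusted p = 7.26e-07) in OB11 DP, 2.11-fold higher (log2 fold change 1.08 ± 0.11, adjusted p = 8.27e-06) in OB11 CD4lo and 1.82-fold higher (log2 fold change 0.86 ± 0.11, adjusted p = 6.17e-05) in WT CD8. In GENCODE M21 it overlaps Gm42743 on the same strand and Gm20628 on the other, with 53.6% of its windows shared, so its reads cannot be assigned to it with certainty. Hist4h4, the H4 gene outside the clusters (6.75% shared), had 20.6 and 21.2 CPM in OB11 CD4hi, 24.8 and 26.5 in OB11 DP, 19.4 and 15.5 in OB11 CD4lo, 20.8 and 15.5 in WT CD8, and 6.75 and 8.89 in WT CD4. Relative to WT CD4 it was 2.64-fold higher (log2 fold change 1.40 ± 0.20, adjusted p = 0.000169) in OB11 CD4hi, 3.24-fold higher (log2 fold change 1.70 ± 0.19, adjusted p = 1.70e-05) in OB11 DP, 2.23-fold higher (log2 fold change 1.15 ± 0.20, adjusted p = 0.000901) in OB11 CD4lo and 2.26-fold higher (log2 fold change 1.17 ± 0.20, adjusted p = 0.000574) in WT CD8. Hist1h4a (40.4% shared) had 5.73 and 6.44 CPM in OB11 CD4hi, 7.37 and 6.07 in OB11 DP, 4.42 and 5.48 in OB11 CD4lo, 3.69 and 3.76 in WT CD8, and 1.24 and 1.67 in WT CD4. It was 4.08-fold higher (log2 fold change 2.03 ± 0.35, adjusted p = 0.000963) in OB11 CD4hi, 4.50-fold higher (log2 fold change 2.17 ± 0.34, adjusted p = 0.000391) in OB11 DP and 3.29-fold higher (log2 fold change 1.72 ± 0.36, adjusted p = 0.00394) in OB11 CD4lo, relative to WT CD4.

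Other members ran the opposite way and were highest in WT CD4. Hist2h2ac (38.6% shared) had 21.8 and 24.4 CPM in OB11 CD4hi, 30.4 and 27.8 in OB11 DP, 16.2 and 19.2 in OB11 CD4lo, 21.7 and 18.9 in WT CD8, and 42.1 and 34.3 in WT CD4. Both WT CD4 libraries were above all 8 others. Relative to WT CD4 it was 1.64-fold lower (log2 fold change -0.72 ± 0.14, adjusted p = 0.00251) in OB11 CD4hi, 2.17-fold lower (log2 fold change -1.12 ± 0.14, adjusted p = 6.93e-05) in OB11 CD4lo and 1.88-fold lower (log2 fold change -0.91 ± 0.14, adjusted p = 0.000269) in WT CD8, and it was not called in OB11 DP. Hist1h4c (19.6% shared) had 4.30 and 6.61 CPM in OB11 CD4hi, 4.86 and 8.47 in OB11 DP, 10.6 and 13.1 in OB11 CD4lo, 6.79 and 6.58 in WT CD8, and 14.2 and 15.1 in WT CD4. The OB11 CD4lo libraries came nearest to WT CD4, and it was 2.68-fold lower (log2 fold change -1.42 ± 0.27, adjusted p = 0.00199) in OB11 CD4hi relative to WT CD4. Hist1h2bc (30.1% shared), 1 of the 4 members with no stem-loop in a long annotated end, had 6.44 and 4.74 CPM in OB11 CD4hi, 3.76 and 5.93 in OB11 DP, 2.55 and 3.52 in OB11 CD4lo, 2.33 and 2.02 in WT CD8, and 9.24 and 7.92 in WT CD4. It was 3.95-fold lower (log2 fold change -1.98 ± 0.35, adjusted p = 0.000759) in WT CD8 relative to WT CD4. Hist2h2be, another of those 4 and an H2B variant known from mouse olfactory neurons (no shared window), had 11 and 15 counts in OB11 CD4hi, 11 and 17 in OB11 DP, 24 and 12 in OB11 CD4lo, 9 and 17 in WT CD8, and 31 and 32 in WT CD4. Both of these members were thus highest in WT CD4, though Hist2h2be did not pass the test of any difference (edgeR, adjusted p = 0.0977). Hist1h2bq and Hist1h2br, the others of those 4, had only 7 and 3 counts in all, with none in WT CD4.

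By position, calls were spread over both stretches of the Hist1 cluster. In OB11 DP against WT CD4, 6 of 16 tested members of the proximal stretch and 15 of 26 of the distal stretch were higher and 0 and 1 were lower, with medians of 1.18 and 1.07, where 11.1% of all genes were higher and 8.06% lower. In the Hist2 cluster 1 of 6 was higher and 1 lower, with a median of -0.13, and neither of the 2 tested Hist3 members was called. The members were also split by whether GENCODE annotates at least 200 bases past the stop codon, a split chosen after the values were seen and therefore not tested. In OB11 DP against WT CD4, the median log2 fold change was 0.61 over 20 tested members with the longer end and 1.21 over 31 with the shorter end. Against WT CD8 these medians were 0.60 and 1.03. The longer group holds the members with the most counts, such as Hist1h1c, Hist1h1d and Hist1h4d. In OB11 CD4lo against WT CD4 the medians were -0.01 and 0.37.

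**Figure D4:**
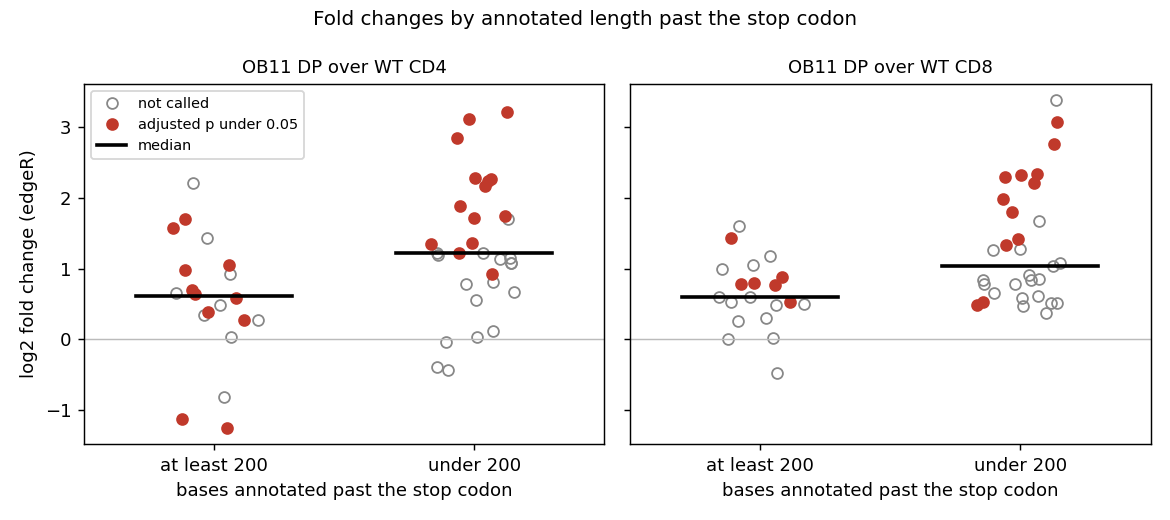
Log2 fold change (vertical axis) of tested histone cluster genes without Hist1h2al, in OB11 DP over WT CD4 (left) and OB11 DP over WT CD8 (right), split at 200 bases annotated past the stop codon. Filled points have an adjusted p under 0.05 and bars are medians; in both panels the bar is higher for the shorter group, and the points of the groups overlap.

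Genes that act on histone genes and their mRNA were called in both directions in OB11 DP against WT CD4, where 11.1% of all genes were higher and 8.06% lower. Of 11 genes of histone mRNA end processing, 2 were higher and 2 lower. Their summed level in OB11 DP was 0.977 times that in WT CD4. Slbp, which binds the stem-loop, had 45.8 and 44.4 CPM in OB11 CD4hi, 48.9 and 52.7 in OB11 DP, 45.7 and 47.6 in OB11 CD4lo, 45.2 and 47.2 in WT CD8, and 35.2 and 33.3 in WT CD4. It was lower in WT CD4 than in the other 4 groups, with log2 fold changes of 0.40 ± 0.09 (adjusted p = 0.00811) in OB11 CD4hi, 0.57 ± 0.09 (adjusted p = 0.000387) in OB11 DP, 0.44 ± 0.09 (adjusted p = 0.00358) in OB11 CD4lo and 0.44 ± 0.09 (adjusted p = 0.00319) in WT CD8. Npat, the transcriptional activator of the clusters, had 40.1 and 38.3 CPM in OB11 CD4hi, 40.9 and 42.6 in OB11 DP, 37.3 and 40.5 in OB11 CD4lo, 39.6 and 36.1 in WT CD8, and 39.98 and 36.5 in WT CD4 and was called in no comparison. Of 8 genes of histone gene transcription 3 were higher and 2 lower in OB11 DP against WT CD4, a share of 62.5% where 19.1% of all genes were called in either direction. This list includes the cell cycle genes Ccne2 and Cdk2, which had its highest and lowest fold changes there. Ccne2 had 26 and 20 counts in OB11 DP and 0 and 3 in WT CD4. Cdk2 had 14.7 and 16.9 CPM in OB11 DP and 26.5 and 28.6 in WT CD4. Of 8 genes of histone mRNA decay 1 was lower, and of 13 tested histone chaperones 4 were higher.

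Replication-independent histone genes, which give polyadenylated mRNA throughout the cell cycle, served as a further list. Their sum was 752 and 791 CPM in OB11 CD4hi, 778 and 805 in OB11 DP, 723 and 841 in OB11 CD4lo, 774 and 736 in WT CD8, and 764 and 653 in WT CD4. WT CD4 library 2 was the lowest. In OB11 DP against WT CD4, 3 of 9 tested were higher, where 11.1% of all genes were, with a median of 0.08, against 1.06 for the cluster genes. H2afz and H3f3b, which encode replacement forms of H2A and H3, were called in no comparison.

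Cell cycle lists moved with the histone genes. The summed level of 22 S phase genes was 742 and 735 CPM in OB11 CD4hi, 734 and 748 in OB11 DP, 645 and 648 in OB11 CD4lo, 642 and 641 in WT CD8, and 491 and 527 in WT CD4. The sum of 18 G2 and M phase genes was 245 and 265 CPM in OB11 CD4hi, 251 and 271 in OB11 DP, 162 and 128 in OB11 CD4lo, 99.1 and 92.3 in WT CD8, and 57.4 and 75.9 in WT CD4. Both sums were highest in OB11 CD4hi and OB11 DP and lowest in WT CD4. The libraries of WT CD8 and WT CD4 did not overlap in either sum, whereas the 67 histone genes overlapped between WT CD8 and WT CD4. In OB11 DP against WT CD4, 12 of 22 S phase genes and 12 of 17 tested G2 and M phase genes were higher, where 11.1% of all genes were, and in OB11 DP against WT CD8, 4 and 6 were higher, where 4.57% of all genes were. Mki67, a marker of cycling cells, had 102 and 116 CPM in OB11 CD4hi, 113 and 119.7 in OB11 DP, 68.1 and 54.04 in OB11 CD4lo, 35.5 and 31.3 in WT CD8, and 25.1 and 27.5 in WT CD4. It was 4.13-fold higher (log2 fold change 2.04 ± 0.12, adjusted p = 2.35e-08) in OB11 CD4hi and 4.40-fold higher (log2 fold change 2.14 ± 0.12, adjusted p = 1.01e-08) in OB11 DP relative to WT CD4. Pcna, the sliding clamp of DNA synthesis, differed less, with log2 fold changes of 0.39 ± 0.09 (adjusted p = 0.00738) in OB11 CD4hi and 0.27 ± 0.09 (adjusted p = 0.0453) in OB11 DP relative to WT CD4. The OB11 DP value lies close to the threshold of 0.05, and Pcna had 65.0 and 75.2 CPM in WT CD4. The part of cycling cells in the histone levels was not tested.

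**Figure D5:**
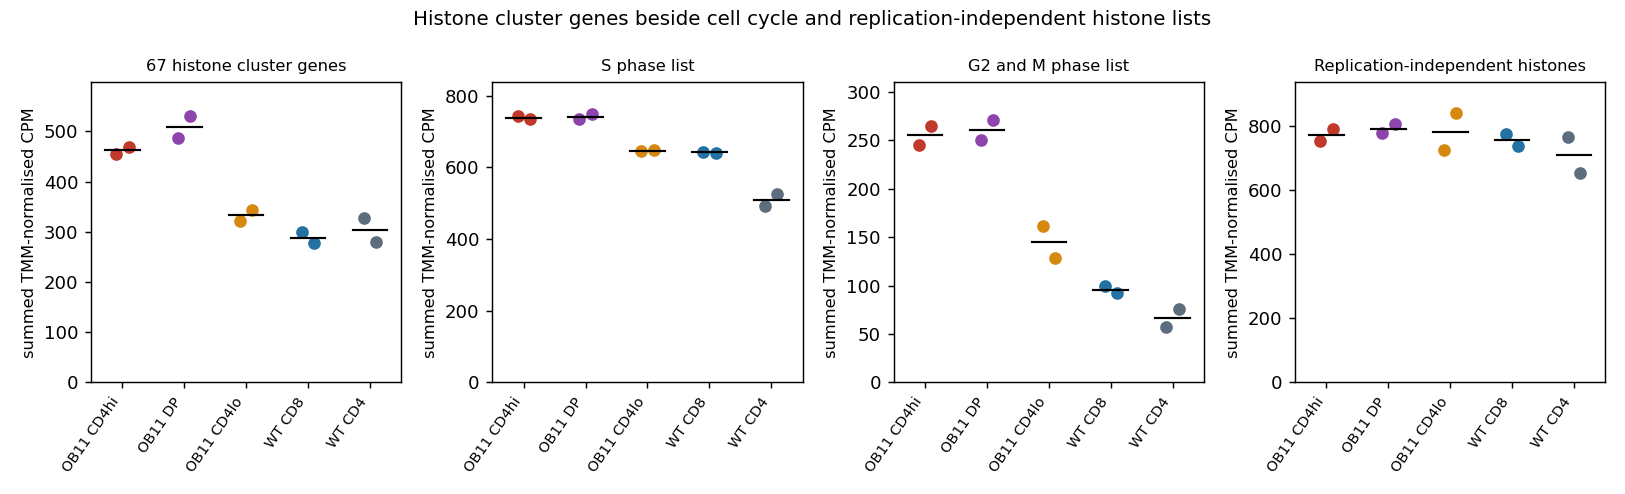
Summed TMM-normalised CPM (vertical axes, from 0) of 67 histone cluster genes (without Hist1h1c, Hist1h1e and Hist1h2al), 22 S phase genes, 18 G2 and M phase genes and 11 replication-independent histone genes; points are the 2 libraries of a group and bars their mean. The first 3 panels are highest in OB11 CD4hi and OB11 DP, and the G2 and M phase sum spans 245 to 271 CPM there, against 57.4 to 99.1 CPM in the wild-type libraries.

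T cell markers were high in every library, at 1931 to 2985 CPM summed over 9 genes. Markers of other cells also differed between groups, and their part in the histone levels was not tested. The sum of 12 B cell markers was 72.0 to 91.6 CPM in OB11 CD4hi, 212 to 254 in OB11 DP, 90.7 to 97.9 in OB11 CD4lo, 309 to 329 in WT CD8 and 46.7 to 78.5 in WT CD4. All 12 were higher in WT CD8 than in WT CD4 and 10 were higher in OB11 DP than in WT CD4, where 11.1% of all genes were higher in each comparison. The sum of 10 macrophage markers was 49.5 to 55.1 CPM in OB11 CD4hi, 165 to 178 in OB11 DP, 30.6 to 37.4 in OB11 CD4lo, 50.8 to 51.8 in WT CD8 and 17.2 to 22.9 in WT CD4. Of these markers, 8 of 8 tested were higher in OB11 DP than in WT CD4, where 11.1% of all genes were. Gamma delta T cell markers summed to 138 CPM in each OB11 CD4lo library and to 4.57 to 8.34 CPM in all others. Thymocyte markers summed to 152 to 219 CPM over all libraries. Most of this sum was Themis, at 116 to 196 CPM, while Dntt had 1.52 to 17.9. Erythroid markers summed to 8.88 to 19.5 CPM, plasma cell markers to 19.0 to 44.2 CPM and neutrophil markers to 0.13 to 4.03 CPM. Xbp1 made up most of the plasma cell sum, at 16.9 to 27.95 CPM, while Sdc1 had at most 5.23. These 2 sums thus mostly follow single genes. No marker in these lists that has a row in the table was at 0 in all libraries.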

How the data were processed

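RNA sequencing gave 10 libraries of sorted naive T cells. The table the authors deposited gives raw counts by gene symbol; the submitters' processing notes name TopHat2, HTSeq and the build mm10, while versions, annotation, strand setting and treatment of reads that fit several genes are not given in the sources used here. Library totals ran from 5055956 to 7417789 counts. With no molecular identifiers, floors (3 counts) cover counting error only. All columns matched a sample by title.

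In R 4.3.3, genes were kept by filterByExpr (12193 genes), scaled by TMM and fitted by group with edgeR 4.0.16 (quasi-likelihood, all 10 libraries), in 10 comparisons and 1 test of any difference, with Benjamini-Hochberg adjustment over all tested genes at 0.05. Exact permutation of 2 and 2 libraries cannot give a p under 0.333 and was not used. The steps were tested on simulated data with the same spread in every library. That test does not cover the libraries that stood apart or groups with a wider spread. Alternatives were RLE size factors, no filter, DESeq2 1.42.0, the 4 compared libraries only, a replicate block, each library left out, and 2 libraries left out, which was chosen after seeing the data. Levels in every library were planned for the 8 members with the highest mean CPM, the 12 with the smallest p for any difference and the 3 highest and 3 lowest called in each comparison. The members and lists were chosen with earlier results of these data known. Positions and stem-loops come from GENCODE M21, in which all 70 members were found, and promoters from RefSeq GRCm38.p6.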

Additional observations from a re-analysis of the deposited data

How the results depend on the processing

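The counts of called members by edgeR stayed within 1.5 times of those reported, except as follows. With the 4 compared libraries only, the count was 12 for OB11 CD4hi over WT CD4, 7 for OB11 CD4lo over WT CD4, 7 for WT CD8 over WT CD4, 4 for OB11 CD4lo over WT CD8 and 1 for OB11 DP over OB11 CD4hi. DESeq2 gave 7 for WT CD8 over WT CD4, 8 for OB11 CD4hi over WT CD8, 11 for OB11 DP over WT CD8, 0 for OB11 CD4lo over WT CD8 (edgeR 2, and 13 at an unadjusted p under 0.05), 3 for OB11 CD4lo over OB11 CD4hi and 7 for OB11 CD4lo over OB11 DP. Without the filter there were 4 for OB11 CD4lo over WT CD8 and 1 for OB11 DP over OB11 CD4hi. The replicate block gave 0 for OB11 CD4lo over WT CD8. Without OB11 CD4hi 1 and WT CD4 2, an alternative added after seeing the data, that comparison had 4. The cause of these shifts was not tested.

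Leaving out each library in turn gave 23 to 31 members for any difference, 13 to 20 for OB11 CD4hi over WT CD4, 16 to 27 for OB11 DP over WT CD4, 7 to 13 for OB11 CD4lo over WT CD4, 6 to 11 for WT CD8 over WT CD4, 4 to 18 for OB11 CD4hi over WT CD8, 7 to 25 for OB11 DP over WT CD8, 0 to 4 for OB11 CD4lo over WT CD8, 0 to 1 for OB11 DP over OB11 CD4hi, 2 to 12 for OB11 CD4lo over OB11 CD4hi and 5 to 14 for OB11 CD4lo over OB11 DP. A group left with 1 library was assumed to vary like the others. For the named members, only fold changes called in the reported fit were followed. Of 1824 such values under an alternative, 1496 kept their direction and the call, 328 kept their direction and lost the call, and none changed direction. These were picked for being called, so the counts do not describe fold changes that were not called. Whether same-numbered libraries came from the same animals is not given in the labels. Deviations of same-numbered libraries correlated between groups at -0.507 to 0.124, with 1 of 10 pairs of groups above 0.1. Such correlations cannot decide whether the samples were paired. The replicate block changed no other count by over 1.5 times. Low counts limit members such as Hist1h2bl, Hist1h3b and Hist1h2ab, and shared sequence limits the assignment of counts to single members.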
